A study of Homo sapiens with 9 samples.

Results

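This report follows a single experiment, the acute removal of JUN protein in cells that were making labelled RNA. The cells were MCF10A, an immortalised but non-tumorigenic line from human breast epithelium, and they lacked their own JUN gene product (JUN knockout) and carried 2 vectors, one for JUN fused to an auxin-inducible degron with a V5 tag (JUN-AID-V5) and one for the plant receptor TIR1, which hands the fusion protein to the proteasome once the plant hormone indole-3-acetic acid (IAA) is added. All libraries, the controls included, came from this line. The treated cells received 100 µM IAA for 1 h and then 100 µM 4-thiouridine (4sU) for another 1 h. The control cells received the solvent DMSO on the same schedule, either with 4sU (3 libraries) or without it (3 libraries). The 3 columns deposited for IAA held identical values in all 56868 rows of the table, so that treatment is represented by 1 library here, its own spread is unknown, and no p-value for the treatment is given. The members are the 6626 of 25801 genes with a mean of at least 10 CPM, the read count scaled to a fixed library size, in the 3 DMSO libraries with 4sU. The total was 20057746 reads in the IAA library and 20086010 to 24014195 in the DMSO libraries, and the tested genes had a median of 686 reads per DMSO library. The knockout was selected from single-cell clones by the study's methods, JUN-AID-V5 was driven by the EF1a promoter of a lentiviral vector rather than by the JUN promoter, and the number of clones behind these libraries is not given in the sources used here. No library had IAA without the degradable JUN, so effects of IAA itself and of losing JUN cannot be told apart.

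JUN is a basic leucine zipper protein that pairs with FOS, ATF or other JUN proteins to form AP-1, a transcription factor that many growth factor and stress pathways converge on. In mammary epithelium AP-1 is known for driving cytokines, proteases and matrix genes, and it shares many enhancers with YAP/TAZ, the effectors of the Hippo pathway. SLAM-Seq follows new RNA through 4sU, which is built into transcripts during the pulse and is read as C in place of T after alkylation, so the T>C conversion rate of a gene grows with the newly made part of its mRNA. Libraries were of the 3′-end type, and each gene was counted over an interval near its 3′ end.

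Measures of 3 kinds were compared, total mRNA as log2(CPM + 1), the conversion rate, and the product of both, which follows the amount of new RNA. A gene was called when the IAA value lay outside the range of all 3 DMSO libraries with 4sU and at least 2-fold from their mean. The null was each DMSO library set against the other 2, beside the IAA library against the same 2. Unless stated otherwise, DMSO values are given in the order of replicates 1, 2 and 3 with 4sU. Libraries without 4sU differ from the IAA library in labelling as well as in IAA. Their values are given for reference and are no matched control. A difference here is the IAA library minus the mean of the 3 DMSO libraries on the log2 scale, and the spread is the SD of the 3 DMSO libraries.

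The markers expressed were mainly those of basal mammary epithelium. Of 11 such markers, KRT5 among them, 10 reached 10 CPM, and their summed level was 6178 CPM with IAA against 6101 to 6547 CPM in DMSO. Of 8 luminal markers 3 reached 10 CPM, and their summed level was 146 CPM with IAA against 125 to 158 CPM in DMSO. No marker of fibroblasts, endothelium or leukocytes reached 10 CPM, their summed levels were at most 14.5 CPM, and COL1A2, COL3A1, VWF, CDH5, PTPRC and CD3E were listed at 0 in all 4 labelled libraries. The median conversion rate of the tested genes was 0.215% with IAA, 0.232%, 0.179% and 0.174% in DMSO with 4sU, and 0.0575% to 0.0598% without 4sU. The labelling of the IAA library was thus inside the DMSO range, and rates were centred on each library's median before calling.

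Among tested genes the strongest difference in total mRNA was in CYP1B1, which the aryl hydrocarbon receptor (AHR) is known to control. AHR is a cytosolic receptor for planar aromatic compounds, some indoles among them, which moves to the nucleus, pairs with ARNT and binds DNA at a GCGTG core. CYP1B1, a cytochrome P450 that oxidises steroids and polycyclic aromatics, measured 159, 193 and 136 CPM in DMSO and 848 CPM with IAA. Its counts came from 17002 reads with IAA and 10738 reads over the 3 DMSO libraries, the difference was 2.39 log2 units, and the spread in DMSO was 0.25. The IAA library stood 2.13 log2 units above the highest DMSO library, and the 3 unlabelled DMSO libraries, at 101 to 239 CPM, were also far below it. Count models of the IAA library against the 3 DMSO libraries take all their spread from the DMSO libraries, so they compare these libraries and not the treatments. At a Benjamini-Hochberg adjusted p of 0.05 DESeq2 called CYP1B1 alone and edgeR's quasi-likelihood test 0 genes, with 28 higher and 8 lower at an unadjusted p of 0.05 in edgeR and 33 and 18 in DESeq2. DESeq2 also called 138 genes, and edgeR 1, for DMSO replicate 1 against replicates 2 and 3.

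CYP1A1, the closest relative of CYP1B1 and the classical AHR target, was almost silent in DMSO and fell under the expression minimum. It measured 1.13, 0.833 and 0.249 CPM in DMSO and 38.3 CPM with IAA. These values rest on 49 reads in the 3 DMSO libraries together and 769 reads in the IAA library, a ratio of 51.2 with a 95% counting interval of 38.3 to 69.8 that covers counting error only. Of 299 genes under 10 CPM in DMSO and at 10 CPM or more with IAA, CYP1A1 was the 1 gene that was at least 2-fold above each DMSO library. These genes were picked by their IAA value, and no DMSO library was put through the same filter, so the count is no test. Its conversion rate was 3.27% with IAA against 1.51%, 1.29% and 0% in DMSO. All 3 DMSO rates come from very few reads, 49 together, so they are poorly determined.

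TIPARP, an ADP-ribosyltransferase that feeds back on AHR, measured 17.1, 22.4 and 22.8 CPM in DMSO and 52.1 CPM with IAA, a difference of 1.30 log2 units. The IAA value was above each labelled DMSO library, but the unlabelled DMSO libraries held 32.9, 58.8 and 57.1 CPM of TIPARP, so it was inside the range of those. TIPARP averaged 49.6 CPM in DMSO without 4sU and 20.8 CPM with 4sU, so the unlabelled libraries are no matched control here. NQO1, a quinone reductase, measured 354.5, 275 and 267 CPM in DMSO and 381 CPM with IAA. ALDH1A3, which makes retinoic acid, measured 930, 869 and 811 CPM and then 1244 CPM. Both were above all 6 DMSO libraries, with differences of 0.36 and 0.52 log2 units that stayed under the 2-fold limit.

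AHR itself was at 10.4, 14.3 and 14.4 CPM in DMSO and 12.7 CPM with IAA, and its partner ARNT at 11.8, 15.5 and 13.99 CPM and then 13.86 CPM. Neither lay outside its DMSO range in any of the 3 measures. Of the 6 tested members of the AHR list, 4 were higher with IAA and 0 lower in total mRNA, where 31.2% of all tested genes were higher and 10.6% lower, and 2 of the 6 were called 2-fold higher against 0.136% of all genes. The median difference of the list was 0.44 log2 units, and that of all tested genes 0.05. The list was chosen with earlier results of these data known, so its shares and median are no independent evidence. ALDH3A1, which oxidises aromatic aldehydes, was under the minimum, with 6.72, 2.71 and 3.34 CPM in DMSO and 7.73 CPM with IAA.

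The mRNA of these genes did not carry a uniformly higher conversion rate. For CYP1B1 the rate was 0.462%, 0.450% and 0.519% in DMSO and 0.439% with IAA, and after centring it lay inside the DMSO range. The product of rate and CPM was 0.733, 0.866 and 0.706 in DMSO and 3.72 with IAA, a difference of 2.08 log2 units, so CYP1B1 was called in that measure as well. TIPARP had a rate of 1.86%, 1.28% and 1.61% in DMSO and 1.33% with IAA, below the range after centring, and its product was above the DMSO range by 0.58 log2 units. In ALDH1A3 and NQO1 the rate itself was above the range. ALDH1A3 had 0.119%, 0.132% and 0.117% in DMSO and 0.211% with IAA, and NQO1 had 0.120%, 0.127%, 0.107% and 0.169%. Without 4sU the rate was at most 0.0578% for CYP1B1, 0.0815% for TIPARP, 0.0628% for ALDH1A3 and 0.0589% for NQO1, so the background was a larger part of the rate in ALDH1A3 and NQO1.

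CYP1A1 lies on chromosome 15 at 75011883 to 75017877 of GRCh37 on the minus strand, and its counted interval of 950 bases is as long as its last 3′ UTR block. CYP1B1 lies on chromosome 2 at 38294116 to 38337044 on the minus strand, and TIPARP on chromosome 3 at 156391024 to 156424559 on the plus strand. The 250 bases before the start of CYP1A1 and of the first of 3 TIPARP entries are shown because both genes were higher with IAA, with the AHR core GCGTG, or CACGC where it is on the other strand, in capitals. They are RefSeq sequences of GRCh38.p14 at chr15:74725529-74725778 on the minus strand and chr3:156674340-156674589 on the plus strand.
CYP1A1: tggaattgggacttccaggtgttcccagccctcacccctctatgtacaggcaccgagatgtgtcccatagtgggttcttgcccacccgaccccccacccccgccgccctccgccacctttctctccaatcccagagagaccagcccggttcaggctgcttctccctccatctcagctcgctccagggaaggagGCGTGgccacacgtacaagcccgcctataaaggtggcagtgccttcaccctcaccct
TIPARP: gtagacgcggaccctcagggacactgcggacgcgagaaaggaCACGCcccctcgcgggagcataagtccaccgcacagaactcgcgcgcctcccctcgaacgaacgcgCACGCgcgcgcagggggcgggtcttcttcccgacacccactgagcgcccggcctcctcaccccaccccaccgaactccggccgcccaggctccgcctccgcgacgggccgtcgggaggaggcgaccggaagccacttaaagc
GCGTG, searched on both strands, was present 1 time for CYP1A1, 57 bases before the start, and 2 times for the TIPARP entry shown, and it was absent from the other TIPARP entries. It is a common word, found in 32.2% of the 35116 promoter entries of this length and in 45.7% of the 8085 entries of tested genes. The longer TNGCGTG, which contains it, was in neither window and in 4.52% of all entries. In the 250 bases before the start, ALDH1A3 had GCGTG 2 times and NQO1 0 times. Whether AHR binds at any of these matches was not tested. No promoter entry was matched for CYP1B1.

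**Figure D1:**
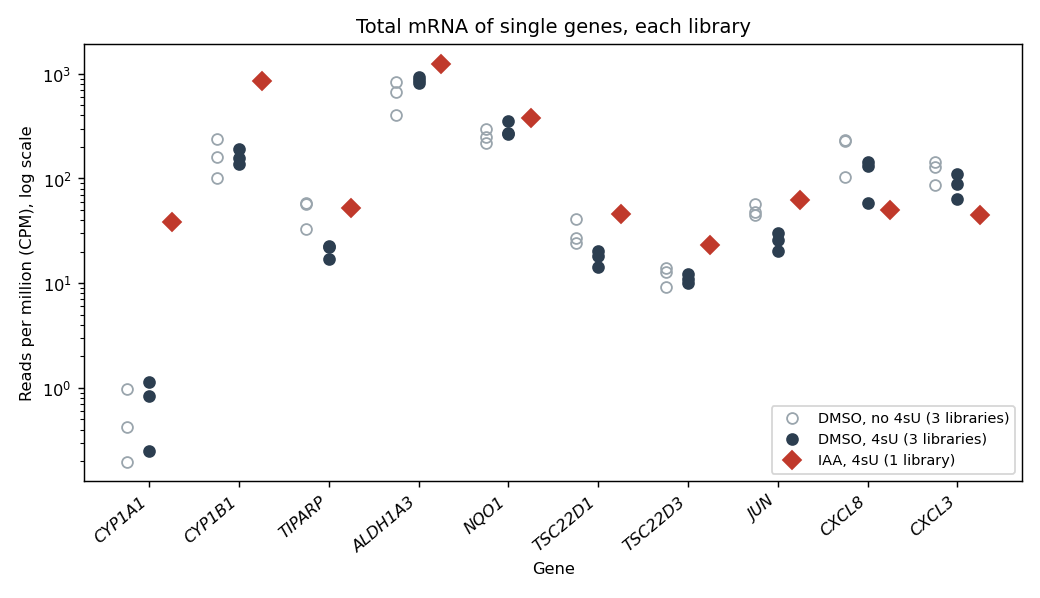
Total mRNA of 10 genes in each library, as CPM on a log axis. Open circles are the 3 DMSO libraries without 4sU, filled circles the 3 DMSO libraries with 4sU and diamonds the IAA library. CYP1A1 at 38.3 CPM and CYP1B1 at 848 CPM stand clear of all DMSO libraries, whereas TIPARP with IAA lies within the unlabelled ones, which are no matched control.

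The mRNA of JUN was itself called higher. It measured 30.2, 20.3 and 25.6 CPM in DMSO with 4sU, 48.1, 57.6 and 45.0 CPM in DMSO without it, and 62.9 CPM with IAA. The IAA value was the highest of the 7 libraries, the difference was 1.29 log2 units against a spread of 0.28, and the product of rate and CPM was 1.87 against 0.931, 0.412 and 0.606. Its conversion rate, 3.08%, 2.03% and 2.37% in DMSO and 2.97% with IAA, was inside the DMSO range as deposited and above it after centring. The level of the mRNA is no check of the depletion, which acts on the protein. The counted interval of 1287 bases is as long as a JUN 3′ UTR block at 59246463 to 59247749 on chromosome 1 of GRCh37, where the gene spans 59242517 to 59249720 on the minus strand. Whether the reads came from the disrupted gene or from the vector was not tested.

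The JUN promoter is shown because AP-1 is known to act on it through TGACATCA, an AP-1-like element. The 250 bases before the start are at chr1:58784048-58784297 of GRCh38.p14 on the minus strand, with that element and a GCGTG core in capitals.
JUN: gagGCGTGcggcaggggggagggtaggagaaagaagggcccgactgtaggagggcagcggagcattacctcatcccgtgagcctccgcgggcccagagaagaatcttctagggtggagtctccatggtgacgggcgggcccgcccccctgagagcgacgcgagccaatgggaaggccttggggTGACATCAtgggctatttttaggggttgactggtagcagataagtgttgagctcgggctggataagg
TGACATCA on either strand was present 67 bases before the JUN start and in 2.37% of all promoter entries.

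The other AP-1 genes gave a mixed picture in which the JUN genes, MAFF and MAFG were higher in total mRNA and FOSL1 was not. Of 20 genes of the family, 9 were tested, 6 were higher and 1 lower than the DMSO range in total mRNA, against 31.2% and 10.6% of all tested genes, and the median difference was 0.36 log2 units. Set against the other 2, DMSO replicates 1, 2 and 3 gave medians of 0.14, -0.43 and 0.10 for this list, so replicate 2 differed by more. JUNB, an inhibitor of some JUN functions, measured 15.9, 11.6 and 17.7 CPM in DMSO and 24.6 CPM with IAA. JUND, the most constantly expressed JUN protein, measured 38.9, 18.2 and 24.5 CPM and then 42.3 CPM. MAFF, a small MAF protein without a transactivation domain, measured 30.1, 38.9 and 36.7 CPM and then 58.9 CPM, and MAFG, of the same kind, 69.8, 74.6 and 77.7 CPM and then 95.1 CPM.

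For JUNB the unlabelled DMSO libraries, at 28.8 to 40.95 CPM, were above the IAA library, whereas MAFF with IAA was above all 6 DMSO libraries. ATF4, the main factor of the integrated stress response, was at 225, 232 and 181 CPM and then 246 CPM. ATF2, a partner of JUN, was the only member below the range, with 22.4, 22.8 and 23.3 CPM and then 21.3 CPM, a difference of -0.10 log2 units. FOSL1, the FOS protein prominent in basal epithelial cells, was inside the range in total mRNA, with 16.4, 10.5 and 15.5 CPM and then 13.8 CPM. It was below the range in conversion rate, at 2.82%, 4.31% and 2.31% in DMSO and 2.23% with IAA. FOS was under the minimum, at 4.42, 2.33 and 2.39 CPM and then 2.44 CPM. Its conversion rate was among the highest here, 9.39%, 7.44% and 5.135% in DMSO and 10.05% with IAA.

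**Figure D2:**
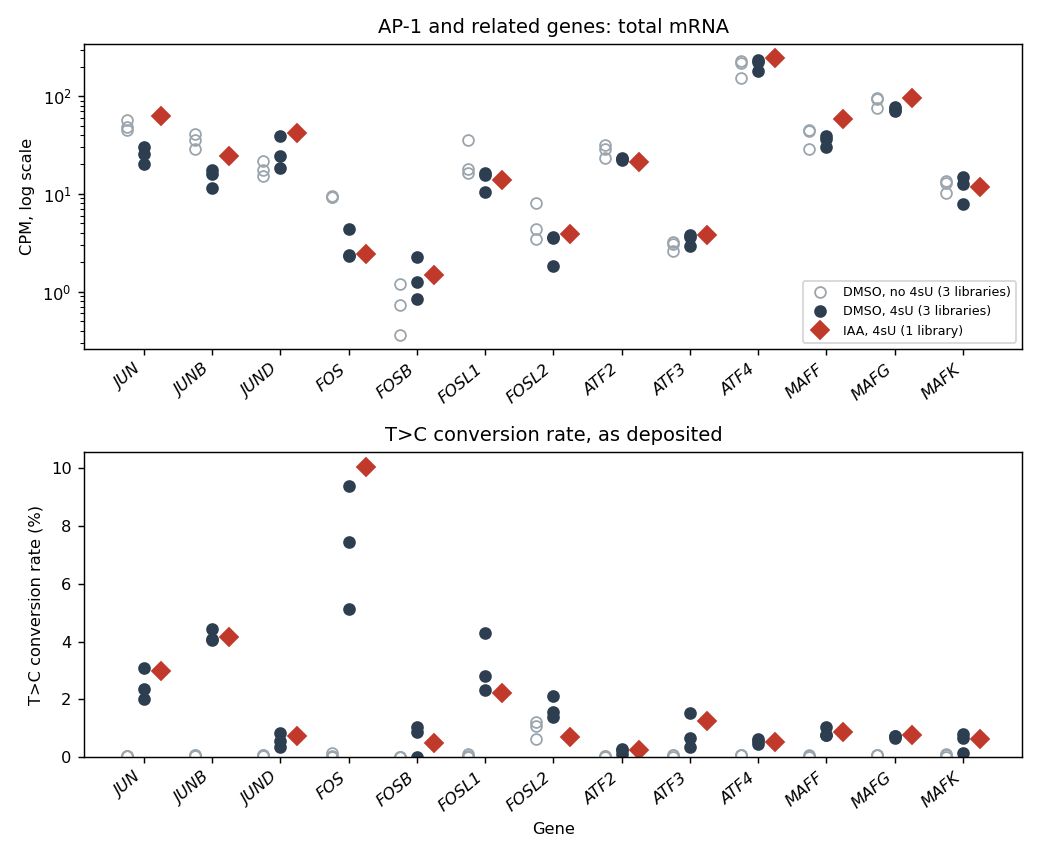
AP-1 and related genes in each library, with total mRNA as CPM on a log axis above and the deposited T>C conversion rate in % below. Symbols are open circles for DMSO without 4sU, filled circles for DMSO with 4sU and a diamond for the IAA library. JUN with IAA, at 62.9 CPM, lies above all DMSO libraries, whereas FOSL1, at 13.8 CPM, lies among them.

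TSC22D1 and TSC22D3, related leucine zipper genes that respond to TGF-β and to glucocorticoids respectively, were higher with IAA. TSC22D1 measured 20.2, 14.3 and 18.1 CPM in DMSO and 46.1 CPM with IAA, and the unlabelled DMSO libraries had 40.8, 26.99 and 24.2 CPM. The difference was 1.36 log2 units, while the conversion rate was lower with IAA, at 1.42% against 2.15%, 2.62% and 1.87%. TSC22D3, which was chosen after its values were seen, measured 10.1, 10.99 and 12.3 CPM in DMSO and 23.1 CPM with IAA, a difference of 0.99 log2 units, just under the limit. It was above all 6 DMSO libraries, and its rate of 1.02% was above the 0.929%, 0.223% and 0.445% of the labelled ones. TSC22D1 lies on chromosome 13 at 45006279 to 45151283 and TSC22D3 on the X chromosome at 106956451 to 107020572 of GRCh37, both on the minus strand.

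The remaining genes called 2-fold higher were ZNF428, BCL3, TSKU, ATN1 and CTSZ. BCL3, an IκB protein that acts as a nuclear coactivator, measured 23.4, 9.33 and 14.6 CPM in DMSO and 31.0 CPM with IAA. CTSZ, a lysosomal protease, measured 51.8, 21.8 and 21.7 CPM and then 59.4 CPM, and 1 unlabelled DMSO library reached 119 CPM. ATN1, a transcriptional corepressor, measured 75.9, 39.4 and 32.5 CPM and then 95.7 CPM. In each of these 5 genes DMSO replicate 1 was much the highest DMSO library and stood close to the IAA library. Without DMSO replicate 2, ZNF428, BCL3, TSKU, ATN1 and CTSZ were no longer called.

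**Figure D3:**
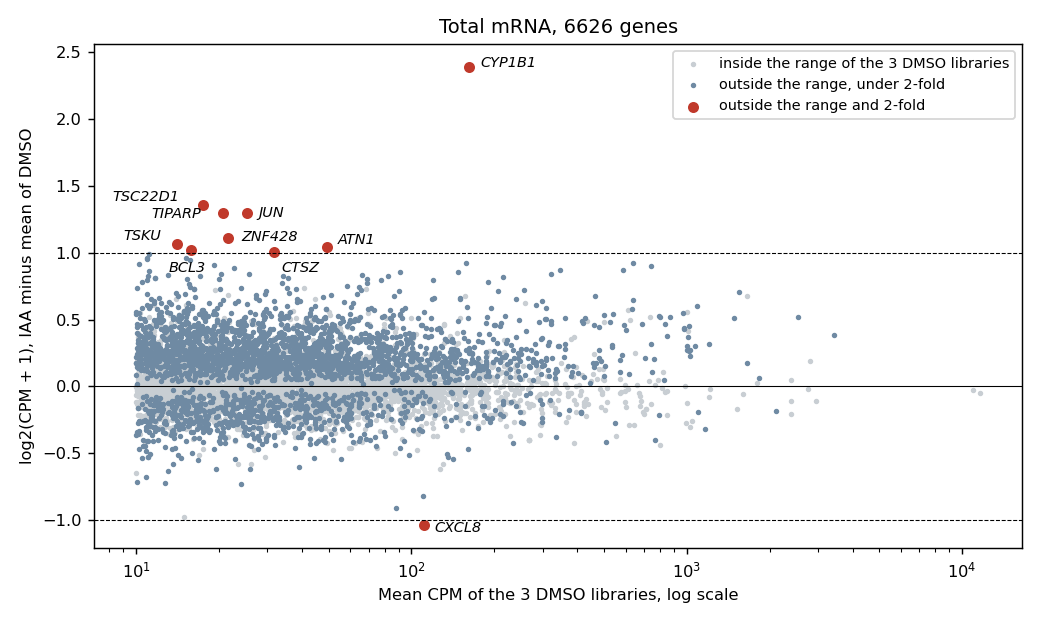
Total mRNA of the 6626 tested genes. The x axis is the mean CPM of the 3 DMSO libraries with 4sU on a log scale and the y axis the log2(CPM + 1) of the IAA library minus their mean, with genes inside the DMSO range in light grey, outside it in blue and also 2-fold away in red. The 9 genes called higher and CXCL8, the 1 called lower, are named, and CYP1B1 lies at 2.39.

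The only gene called 2-fold lower, 0.0151% of those tested, was CXCL8, the neutrophil chemokine interleukin 8. It measured 58.1, 131 and 145 CPM in DMSO and 49.7 CPM with IAA, a difference of -1.04 log2 units, with an SD of 0.71 among the DMSO libraries. Without DMSO replicate 2 or without replicate 3 CXCL8 was no longer called. DMSO replicate 1 was near the IAA value, and the unlabelled DMSO libraries held 103.5, 232 and 229 CPM. The conversion rate of CXCL8 was 1.33%, 0.629% and 0.592% in DMSO and 1.12% with IAA, inside the range. The product was 0.771, 0.821 and 0.855 in DMSO and 0.558 with IAA, below all 3 labelled DMSO libraries, which were close together in this measure.

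CXCL3, a related chemokine of the same cluster on chromosome 4, was below the DMSO range in all 3 measures. It had 63.8, 88.4 and 110 CPM in DMSO and 45.0 CPM with IAA, below all 6 DMSO libraries. Its rate was 1.199%, 0.944% and 0.694% in DMSO and 0.460% with IAA, and the product was 0.765, 0.834 and 0.767 against 0.207. CXCL1, chosen after its values were seen, measured 588, 832 and 875 CPM in DMSO and 569 CPM with IAA. Again DMSO replicate 1 was the DMSO library nearest to it. CXCL8 spans 74606236 to 74609433 on the plus strand and CXCL3 74902306 to 74904524 on the minus strand of chromosome 4 in GRCh37.

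The CXCL8 promoter is shown because it holds a textbook AP-1 site. The 250 bases before the start are at chr4:73740319-73740568 of GRCh38.p14 on the plus strand, with TGACTCA, a match to the AP-1 motif TGANTCA, in capitals.
CXCL8: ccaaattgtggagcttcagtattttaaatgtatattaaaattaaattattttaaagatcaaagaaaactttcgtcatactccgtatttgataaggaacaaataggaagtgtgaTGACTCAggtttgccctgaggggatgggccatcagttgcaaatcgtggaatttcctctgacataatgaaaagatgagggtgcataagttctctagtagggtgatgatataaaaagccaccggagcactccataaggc
TGANTCA, which reads the same type of site on both strands, was present 137 bases before the CXCL8 start, in 6.57% of all promoter entries and in 4.35% of those of tested genes. It was not in the windows shown for CYP1A1, TIPARP or JUN, nor in that of CXCL3. For TSC22D1, which was called higher with IAA, it was present 77 bases before the start in entry 3 of 5.

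By the distance to the nearest DMSO library, the leading lower genes were PPP1R3B, a glycogen-targeting phosphatase subunit, CXCL3 and RGS2, a GTPase activator for G proteins. PPP1R3B measured 14.1, 13.0 and 12.2 CPM in DMSO and 8.08 CPM with IAA, and RGS2 8.27, 12.1 and 9.91 CPM and then 5.68 CPM. Their differences, -0.63 and -0.72 log2 units, were under 2-fold, and the unlabelled DMSO libraries were higher still, reaching 39.8 CPM for PPP1R3B and 35.6 CPM for RGS2.

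Among genes with at least 100 CPM in DMSO, a limit added after the data were seen, the leading higher genes after CYP1B1 included ALDH1A3, SLC7A5, RPL34 and THBS1. SLC7A5, the large neutral amino acid transporter, measured 279, 171 and 195 CPM and then 372 CPM. Its rate was higher too, 0.168%, 0.113% and 0.120% in DMSO and 0.255% with IAA. THBS1, a matrix glycoprotein, had a rate of 0.491%, 0.538% and 0.563% in DMSO and 0.826% with IAA. SLC7A5 and THBS1, like ALDH1A3, were thus above the range in total mRNA, in rate and in product. The lower genes by the same rule were EIF5A, CXCL8, PDIA3P1, HSP90B2P, IRF2BP2 and AHCYL1, with differences of -1.04 to -0.23 log2 units. PDIA3P1 and HSP90B2P are pseudogenes whose reads may come from their parent genes, and RPL34 and EIF5A have near-identical copies too, so these 4 are uncertain.

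Set against the null, few genes in total mRNA stood out. Against DMSO replicates 2 and 3 the IAA library gave 60 genes and DMSO replicate 1 gave 66, which are 0.906% and 0.996% of the genes. Against replicates 1 and 3 the IAA library gave 6 and DMSO replicate 2 gave 50, and against replicates 1 and 2 the IAA library gave 9 and DMSO replicate 3 gave 1. The number of genes called for IAA was thus below that of a DMSO library in 2 of the 3 pairings. The distance of CYP1B1 from the nearest library of a pair, 2.13 to 2.41 log2 units, was larger than the distance of any gene in the 3 null comparisons, where the largest were 1.65, 1.51 and 0.61.  TIPARP, TSC22D1 and JUN, with CYP1B1 the 4 genes more than 1 log2 unit beyond all 3 DMSO libraries, stood 1.16, 1.16 and 1.03 log2 units from the nearest. Distances over 1 log2 unit were also reached by 11 higher and 12 lower genes in DMSO replicate 1 and by 12 lower genes in replicate 2, and by 0 in replicate 3. Those distances are from the nearest of 2 libraries, not of 3. Against the same pairs the IAA library had 33 higher and 2 lower genes, 4 and 1, and 5 and 0.

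**Figure D4:**
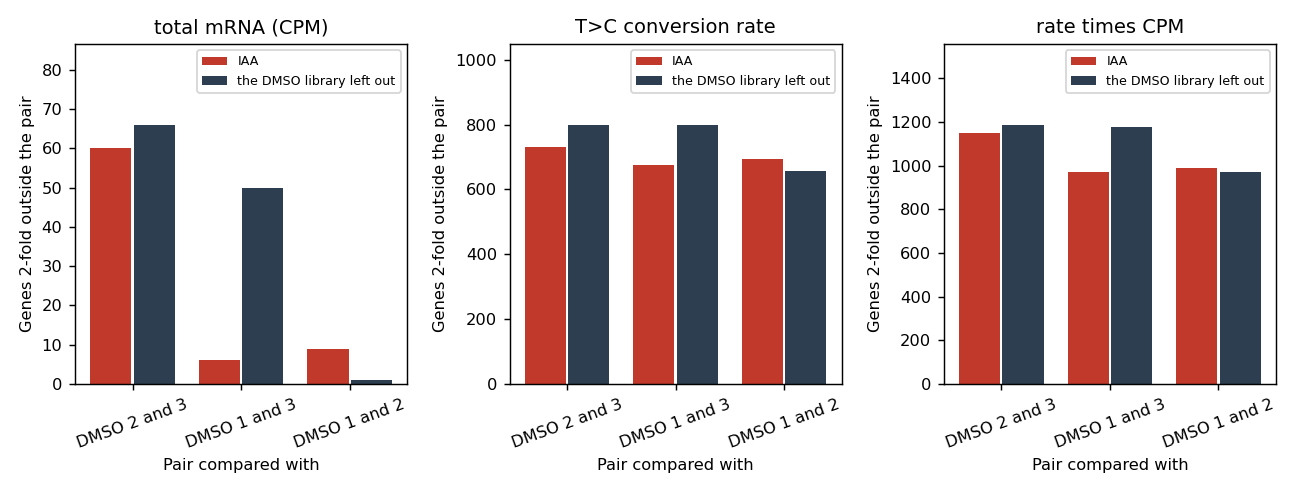
Number of genes outside a pair of DMSO libraries and at least 2-fold from their mean, for total mRNA, conversion rate and their product. In each pair of bars the left one is the IAA library and the right one the DMSO library that was left out. In total mRNA the counts are 60 and 66, 6 and 50, and 9 and 1, and in the other measures the bars are of similar height.

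The IAA library resembled DMSO replicate 1. Over all tested genes the SD of the difference in log2(CPM + 1) was 0.19 between the IAA library and DMSO replicate 1, 0.39 and 0.31 to replicates 2 and 3, and 0.26 to 0.45 between DMSO libraries. Of the 127 genes at least 1.5-fold higher with IAA, 1.92% of those tested with 0.166% as much lower, 117 had DMSO replicate 1 as their highest DMSO library, against 37.7% of all tested genes. The 10 others were CYP1B1, TIPARP, TSC22D3, JUNB, MAFF, IRX5, EFNA1, CYTH1, OTUD4 and TFAP2A. Compared with DMSO replicate 1 alone, 5 genes were 2-fold higher with IAA (CYP1B1, TIPARP, JUN, TSC22D1 and TSC22D3) and 1 was lower (SERF2), fewer than the 17 and 12 between DMSO replicates 1 and 3. What the 2 libraries share beyond their profile was not tested.

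The conversion rate, which reads new RNA, was far noisier, and its calls were about as frequent as between DMSO libraries. Called 2-fold higher were 266 genes (4.01%) and lower 309 (4.66%), a split that became 369 and 231 with rates as deposited. Against pairs of DMSO libraries the IAA library gave 732, 674 and 695 genes and the left-out DMSO library 799, 798 and 658, so that IAA gave fewer in 2 of the 3 pairings. For the product, 390 genes (5.89%) were higher and 459 (6.93%) lower, or 668 and 291 as deposited, with 1151, 970 and 990 genes for IAA against pairs and 1187, 1179 and 969 for the left-out DMSO libraries.

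The called genes were weakly expressed ones. In the rate, 18.2% of genes between 10 and 20 CPM were called, 7.47% between 20 and 50 CPM, 1.73% between 50 and 100 CPM, 0.111% between 100 and 500 CPM and 0% above. The median SD of the 3 DMSO libraries fell along the same levels, from 0.58 to 0.12 log2 units. The 1 gene called in rate at 100 CPM or more was NEAT1, the long noncoding RNA that builds paraspeckles. Its rate was 0.924%, 0.494% and 0.640% in DMSO and 1.52% with IAA, while its CPM, 139, 189 and 171 in DMSO and 146 with IAA, stayed inside the range.

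The genes that the rule named by rate at 20 CPM or more were of this weakly expressed kind. Higher were IPO4, FUNDC1, RAET1E, GPX4, SLC10A3, MAP2K4, HIPK1 and NECTIN3, and lower NTMT1, RIDA, CHPF, RPE, COA1, LSM14B, DPY19L1 and TRAP1. FUNDC1, a receptor for mitophagy, had 0.173%, 0.110% and 0.0405% in DMSO and 0.584% with IAA at 21.0 to 24.7 CPM. RIDA, an imine deaminase, had 0.130%, 0.104% and 0.172% and was listed at 0 with IAA. By the product the higher genes were FUNDC1, CYP1B1, EIF3K, RAET1E, IPO4, SLC10A3, CTSZ and GPX4, and the lower ones DPY19L1, COA1, RPE, EEF1G, RIDA, NTMT1, EIF2AK1 and MCAM. RAET1E turned to -1.10 in rate and -1.15 in the product, on the log2 scale, when rates were averaged over its intervals. At 100 CPM or more, rates were highest above the range for NEAT1, HSPA8, DCAF7, SLC7A5, DEK and YY1 and lowest below it for CD24, LRP10, ESD, SLC39A14, DDT and RPL22. CD24, a surface glycoprotein, had 0.218%, 0.173% and 0.193% in DMSO and 0.0950% with IAA, a difference of -0.87 log2 units. By the product at that level the higher genes were CYP1B1, SLC7A5, GUK1, ALDH1A3, DEK and SAA1, and the lower ones CD24, ESD, DDT, CRTAP, TIMP3 and ACLY.

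Short-lived transcripts, where a pulse of 1 h labels a larger share, were looked at separately after the data were seen. In DMSO 185 tested genes had a mean rate of 1% or more. Of these, 0 were called higher in rate and 1, RUNDC1, lower, whereas a left-out DMSO library gave 10, 7 and 7 and the IAA library 2, 3 and 3 against the same pairs. Of all tested genes 4.01% were called higher in rate and 4.66% lower. The set was chosen by its rate in DMSO, which tends to place the IAA rate below the DMSO rates. Counts in rate and in the product therefore cannot decide whether short-lived transcripts differed in labelling. In the product 2 were called higher and 3 lower, where 5.89% and 6.93% of all tested genes were. Against pairs, left-out DMSO libraries gave 10, 11 and 11 in the product and the IAA library 12, 7 and 8. In total mRNA 4 were called higher, TIPARP, TSC22D1, JUN and ATN1, and 0 lower, where 0.136% and 0.0151% of all tested genes were. Against pairs, left-out DMSO libraries gave 2, 1 and 0 in total mRNA and the IAA library 6, 3 and 3. DDIT4, an inhibitor of mTORC1 that stress induces, had 13.2, 10.5 and 9.11 CPM in DMSO and 21.9 CPM with IAA, but 63.3 CPM or more in the unlabelled DMSO libraries. BHLHE40, a circadian repressor, had a rate of 3.75%, 3.48% and 3.38% in DMSO and 2.21% with IAA, and REST, a neuronal gene repressor, 1.31%, 0.959%, 0.771% and 0.612%. Others were above the range in rate. TIMM10B had 1.38%, 1.28% and 0.872% in DMSO and 2.32% with IAA, and ZC3H12A 3.55%, 2.90%, 2.58% and 4.40%.

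Known AP-1 targets did not move in 1 direction. Of 26 listed genes 15 were tested, and 5 were higher (33.3%) and 3 lower (20.0%) than the DMSO range in total mRNA, where 31.2% and 10.6% of all tested genes were, with a median difference of 0.21 log2 units. In conversion rate 3 were higher and 6 lower, where 23.9% of all tested genes were higher and 25.8% lower. The higher ones in total mRNA included PLAU, PLAUR, CD44 and VEGFA, and the lower ones were CXCL8, HBEGF and EZR. PLAU, the urokinase, measured 117, 76.75 and 130 CPM in DMSO and 146 CPM with IAA, and its receptor PLAUR 78.4, 52.0 and 66.7 CPM and then 85.4 CPM. VEGFA, an angiogenic factor, measured 82.1, 84.4 and 86.7 CPM and then 120 CPM, inside the 118 to 139 CPM of the unlabelled libraries.

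HBEGF, a ligand of the EGF receptor, was lower in total mRNA, at 54.9, 54.0 and 60.0 CPM in DMSO and 47.2 CPM with IAA, and higher in centred rate. EZR, which links actin to the membrane, was below the range in all 3 measures, with 54.8, 61.8 and 61.8 CPM in DMSO and 51.75 CPM with IAA. Its rate was 0.361%, 0.340% and 0.380% in DMSO and 0.196% with IAA. In rate, MMP9 and PTGS2 were also higher, and CCND1, TIMP1, PLAU and VEGFA were among those also lower after centring. CCND1, cyclin D1, had 0.495%, 0.342% and 0.395% in DMSO and 0.255% with IAA with its CPM inside the DMSO range. IL1B and VIM were below the range in the product alone, with 9.24, 8.68 and 6.99 for IL1B in DMSO and 7.67 with IAA, before centring.

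For the YAP/TAZ targets, the genes the experiment was built around, 19 of 26 listed ones were tested. In total mRNA 4 were higher, CCN2, FJX1, FOXF2 and THBS1, and 5 lower, AMOTL1, ASAP1, CCDC80, PTPN14 and RBMS3, and 0 were called 2-fold either way. These are 21.1% and 26.3% of the list, against 31.2% and 10.6% of all tested genes. In rate 3 were higher and 6 lower (15.8% and 31.6%, against 23.9% and 25.8%), and in the product 3 and 8 (15.8% and 42.1%, against 24.7% and 24.1%). THBS1, AJUBA and MYOF were the higher ones in rate. AJUBA, a LIM protein that restrains LATS kinases, had 0.209%, 0.374% and 0.487% in DMSO and 0.639% with IAA, and MYOF, a membrane repair protein, 0.206%, 0.176%, 0.110% and 0.274%.

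CCN1, AMOTL1, AXL, F3, NT5E and RBMS3 were lower in centred rate, and AMOTL2, CRIM1 and PTPN14 were below the range in the product but not in the rate. RBMS3, an RNA-binding protein, was lower in all 3 measures, with 11.5, 14.7 and 14.4 CPM in DMSO and 9.47 CPM with IAA. F3, the coagulation factor receptor, had a rate of 0.341%, 0.276% and 0.248% in DMSO and 0.249% with IAA. LATS2 and GADD45A were inside the range in all 3 measures. In the study's own longer list of YAP/TAZ targets, which is taken as given and is no independent evidence, 148 genes were tested, with 21 higher and 24 lower in total mRNA and 47 higher and 28 lower in rate. In total mRNA these are 14.2% and 16.2%, against 31.2% and 10.6% of all tested genes, and in rate 31.8% and 18.9%, against 23.9% and 25.8%. The medians were -0.09 and 0.02 log2 units. In total mRNA, DMSO replicates 1, 2 and 3 against the other 2 gave medians of -0.39, 0.29 and 0.09 for this list. In rate they gave 0.03, -0.07 and -0.01, and the IAA library against the same pairs gave 0.06, 0.04 and 0.05.

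Components rather than targets of the pathway were also listed. Of 15 tested Hippo pathway genes 1 was higher and 3 lower in total mRNA (6.67% and 20.0%, against 31.2% and 10.6% of all tested genes). Of 8 genes of the NCOR corepressor complex, which can pair with JUN in repression, 2 were higher, HDAC2 and HDAC3, and 0 lower. NCOR1 measured 31.7, 30.8 and 33.9 CPM in DMSO and 33.55 CPM with IAA, inside the range, and its rate was 0.299%, 0.239% and 0.180% in DMSO and 0.128% with IAA.

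Lists of signalling feedback and stress genes were read against the 31.2% of all tested genes that were above the range in total mRNA and the 10.6% below it, since more genes above than below is the pattern of the whole library. Of 8 tested TGF-β and BMP feedback genes 6 were higher and 1, INHBA, lower, with a median of 0.34 log2 units. In rate 1 was higher and 5 were lower, where 23.9% of all tested genes were higher and 25.8% lower. Set against the other 2, DMSO replicates 1, 2 and 3 gave medians of 0.06, -0.30 and 0.12 in total mRNA for this list. ID1, an inhibitor of bHLH proteins, measured 61.2, 42.4 and 55.5 CPM in DMSO and 70.4 CPM with IAA, and PMEPA1, which damps TGF-β signalling, 400.5, 227 and 286 CPM and then 421 CPM. Of 11 stress response genes of the integrated and ER stress pathways 7 were higher and 0 lower, and of 9 feedback genes of the MAPK pathway 5 were higher and 0 lower. IER3, a survival factor, measured 312, 279 and 278 CPM and then 404 CPM, and DUSP6, an ERK phosphatase, 28.4, 23.4 and 25.4 CPM and then 32.5 CPM. Of 11 NRF2 genes 6 were higher and 1 lower, and FTL, the ferritin light chain, had 555, 225 and 256 CPM in DMSO and 582 CPM with IAA, so that DMSO replicate 1 was again close. None of these lists had a gene called 2-fold in total mRNA.

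Immediate early genes were split. EGR1, a zinc finger factor induced by mitogens, measured 36.1, 19.8 and 21.1 CPM in DMSO and 45.1 CPM with IAA, with a rate of 9.03%, 7.94% and 6.66% and then 9.44%. IER5 was lower, at 85.2, 88.3 and 99.2 CPM in DMSO and 76.1 CPM with IAA. Of 9 tested, 4 were higher (44.4%) and 2 lower (22.2%) in total mRNA, and in the NF-κB list 3 of 13 tested genes were higher and 3 lower (23.1% each), against 31.2% and 10.6% of all tested genes.

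Heat shock and mitosis genes were more often above the range in rate than below it, where 23.9% of all tested genes were above and 25.8% below. Of 12 heat shock genes 5 were higher and 0 lower in rate, with a median of 0.20 log2 units, and 5 were higher and 1 lower in total mRNA. Set against the other 2, DMSO replicates 1, 2 and 3 gave medians of 0.04, 0.13 and -0.20 in rate for this list. HSPA8, a constitutive chaperone, had 0.986%, 0.589% and 0.728% in DMSO and 1.46% with IAA, and BAG3, its cochaperone, 0.445%, 0.409%, 0.351% and 0.651%. Of 16 mitosis genes 8 were higher and 2 lower in rate, with a median of 0.28, while 0 were higher and 4 lower in total mRNA, against 31.2% and 10.6% of all tested genes. For this list the same DMSO comparisons gave medians of 0.10, -0.16 and 0.17 in rate. In total mRNA they gave -0.45, 0.48 and -0.05, where the median with IAA was -0.16. AURKA, a mitotic kinase, had 0.169%, 0.181% and 0.147% in DMSO and 0.510% with IAA at 36.9 CPM. CCNB2, a B-type cyclin, went the other way, with 0.328%, 0.276% and 0.299% and then 0.102%. AURKA and CCNB2 were called 2-fold in rate, as were 7.47% and 18.2% of all genes at their levels of expression, whereas HSPA8 and BAG3 stayed under the 2-fold limit. Of 13 glycolysis genes 0 were outside the range in total mRNA.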

How the data were processed

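Libraries were made with a 3′-end mRNA kit from alkylated RNA. Per the study's methods, reads went through the nf-core pipeline for SLAM-Seq, and the submitters' processing notes name hg19, the same assembly as GRCh37. The authors deposited for each library the T>C conversion rate as a fraction and a signal labelled CPM, which were whole multiples of 1 read in 100% of non-zero cases within 0.01 reads, so that read counts could be recovered. RefSeq names were matched to genes in 97.7% of rows, and of several intervals of a gene (28.5% of tested genes) the one with most DMSO reads was used. No per-sample column was left unused. Pseudocounts were 1 CPM, 0.0005 for the rate and 0.005 for the product. Genes called 2-fold, and outside the range both as deposited and after centring, were named by distance to the nearest DMSO library (up to 10 per direction for CPM, 8 at 20 CPM or more for rate and product, and the leading 3 whatever their fold where fewer than 3 were called), together with JUN and the members of the AP-1, AHR and YAP/TAZ lists outside the range. Members and lists were chosen with earlier results of these data known. The calling rules were tested on simulated data. As alternatives, edgeR 4.0.16 (quasi-likelihood) and DESeq2 1.42.0 in R 4.3.3 compared the recovered counts at a Benjamini-Hochberg adjusted p of 0.05. Other steps used Python 3.11.15, pandas 2.3.3 and numpy 2.4.6. Positions are from GENCODE 44 on GRCh37, and promoters from RefSeq. The number of T positions behind a rate was not in the columns used, so rates carry no counting interval. The replicates are separate samples by their labels, and the study describes its SLAM-Seq replicates as biological. The results for 1 gene that the naming rule covers are not reported here.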

Additional observations from a re-analysis of the deposited data

Results flagged for a closer look

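CYP1A1 lies outside the genes compared, since it was under 10 CPM in the DMSO libraries, and it drew attention because its signal in the IAA library, 38.3 CPM, was far above the DMSO libraries with 4sU (1.13, 0.833 and 0.249 CPM) and without it (0.198 to 0.983 CPM). It rests on 1 IAA library. Groups of 3 libraries are too small for a check of single outlying samples, so none was made.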

How the results depend on the processing

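In total mRNA the 10 genes called became 25 at a minimum of 1 CPM, 2 at 50 or at 100 CPM (the latter added after the data were seen), 138 at 1.5-fold, 2768 with no minimum change, 4 with a pseudocount of 5, 0 with edgeR and 1 with DESeq2. Leaving out 1 DMSO library gave 6 to 60, and the 60 came without DMSO replicate 1, where edgeR called 33 and DESeq2 107 (for DMSO replicate 1 against the same pair, 1 and 138). In the rate the 575 genes became 2053, 21 and 1 at 1, 50 and 100 CPM, 1465 at 1.5-fold, 3293 with no minimum change, 1052 with the unlabelled rate subtracted and 117 with a larger pseudocount. Leaving out 1 DMSO library gave 674 to 732. In the product the 849 genes became 2043, 85 and 15 at 1, 50 and 100 CPM, 1946 at 1.5-fold, 3231 with no minimum change and 389 with a larger pseudocount. Leaving out 1 DMSO library gave 970 to 1151. The other settings run stayed within 1.5 times, but values as deposited turned the split of rate calls from 266 higher and 309 lower to 369 and 231, and that of the product from 390 and 459 to 668 and 291. The causes were not tested beyond what each setting removes or adds.

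Without 1 DMSO library the median difference in total mRNA was 0.38 to 0.53 for the AHR list, 0.32 to 0.39 for the AP-1 family, 0.0441 (without DMSO replicate 2) to 0.31 (without replicate 1) for AP-1 targets and -0.11 to 0.03 for YAP/TAZ targets. In rate it was -0.31 to -0.0781, -0.0712 to 0.0541, -0.14 to -0.0194 and -0.05 to 0.03. As the null in total mRNA, DMSO replicates 1, 2 and 3 were each set against the other 2. Their medians were -0.16, 0.19 and -0.05 for the AHR list and 0.14, -0.43 and 0.10 for the AP-1 family. For AP-1 targets they were -0.05, -0.09 and 0.13, and for YAP/TAZ targets -0.18, 0.16 and 0.11. Of the leading named genes only RAET1E changed direction, to -1.10 in rate and -1.15 in the product when rates were averaged over its intervals. No paired analysis was possible because the IAA columns are 1 library. With 1 IAA library, and DMSO libraries that differ by as much among themselves, most differences under 2-fold cannot be told from those between DMSO libraries.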
